A study of Caenorhabditis elegans with 14 samples.

Results

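*miR-240-3p* and *miR-786-3p* are the guide strands of *mir-240* and *mir-786*, neighbouring miRNA genes on the X chromosome of *C. elegans*. They were taken as the strands of these genes that the count table marks as guides, which gave 2 of its 214 guide strands and 371 strands in all. A guide strand is the arm of the hairpin that is loaded into Argonaute, and the star strand is the arm that is mostly discarded. Small RNA of whole animals was sequenced in 14 libraries to ask whether loss of HRPK-1, an RNA-binding protein with KH domains that is the homolog of hnRNPK, changes mature miRNA levels. The libraries fell into 5 groups, all in the N2 strain background and grown at 20 °C on OP50 bacteria: *hrpk-1(tm5522)* L4 larvae (n = 2), *hrpk-1(zen17)* L4 larvae (n = 3), wild type L4 larvae (n = 3), *hrpk-1(zen17)* embryos (n = 3) and wild type embryos (n = 3). The *zen17* allele is a CRISPR/Cas9 deletion that the study treats as a null. The *tm5522* allele is an in-frame deletion that leaves a truncated protein, and the study describes it as antimorphic. No *tm5522* embryos were analysed here.

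The *mir-240 mir-786* locus is known for its part in a gut rhythm. In *C. elegans* the intestine sets the period of defecation through waves of calcium that start in its posterior cells, and *mir-786* acts in these cells, through the fatty acid elongase gene *elo-2*, to place the start of the wave. Loss of the *mir-240 mir-786* locus lengthens the defecation cycle. The annotation (Ensembl release 115, WBcel235) places *mir-240* at X, 7882622 to 7882718, and *mir-786* at X, 7882751 to 7882840, both on the forward strand and 32 bp apart. The pair lies between protein-coding genes, 1673 bp from *C39D10.8* and 1453 bp from *pcyt-2.2*. On the reverse strand the annotation has *mir-8203* inside *mir-786*, which was not analysed here. Mature sequences were not used here, so whether the members share a seed was not checked.

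Levels are given in ppm, the counts of a strand per 1000000 miRNA counts of its library. The counts summed to between 11195163 and 19762103 in the 8 L4 libraries and to between 1919348 and 10900326 in the 6 embryo libraries. A strand with 0 counts could still be present at up to the level of 3 counts, which was 1.56 ppm in the shallowest library, wild type embryo replicate 3, and 0.152 ppm in the deepest; these limits cover counting error only. The stage labels were set against marker miRNAs. The 8 guides of the *miR-35* family, which are abundant in embryos, summed to between 1402 and 3857 ppm in L4 libraries and to between 513600 and 776300 ppm in embryo libraries. The 5 guides that time larval development, *lin-4-5p* and 4 of the *let-7* family, summed to between 90390 and 234400 ppm in L4 libraries and to between 143 and 434 ppm in embryo libraries. Wild type L4 replicate 2 stood apart from the other L4 libraries, with the highest *miR-35* family sum and the lowest larval sum. The labels do not say that replicates came from separate cultures, so p-values measure only the spread between these samples.

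Both members were abundant in L4 larvae and near the lower end of detection in embryos. *miR-240-3p* stood at 125 and 104 ppm in *tm5522* L4 larvae, at 148, 317 and 132 ppm in *zen17* L4 larvae and at 186, 93.1 and 97.8 ppm in wild type L4 larvae. In embryos it stood at 2.81, 5.11 and 1.146 ppm in *zen17* and at 3.49, 2.72 and 4.69 ppm in wild type. The L4 groups overlapped, apart from *tm5522* and *zen17*, and the embryo groups overlapped as well, while every L4 library was far above every embryo library.

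*miR-786-3p* was the higher member in every library. It stood at 1173 and 1360 ppm in *tm5522* L4 larvae, at 1104, 2263 and 1107 ppm in *zen17* L4 larvae and at 1181, 420.0 and 698 ppm in wild type L4 larvae. In embryos it stood at 4.46, 8.24 and 3.58 ppm in *zen17* and at 6.97, 7.39 and 9.90 ppm in wild type. *zen17* replicate 2 was the highest L4 library and wild type replicate 2 the lowest for both members.

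Group means put *zen17* highest at L4 for both members. For *miR-240-3p* they were 114.6 ± 14.99 ppm in *tm5522* L4 larvae (SD, n = 2), 199 ± 103 ppm in *zen17* and 126 ± 52.3 ppm in wild type at L4 (SD, n = 3 each), and 3.02 ± 1.99 ppm in *zen17* and 3.63 ± 0.991 ppm in wild type embryos (SD, n = 3 each), so that *tm5522* was the lowest L4 group. For *miR-786-3p* they were 1266 ± 132 ppm in *tm5522* L4 larvae (SD, n = 2), 1491 ± 668 ppm in *zen17* and 766 ± 385 ppm in wild type at L4 (SD, n = 3 each), and 5.43 ± 2.47 ppm in *zen17* and 8.09 ± 1.58 ppm in wild type embryos (SD, n = 3 each), so that wild type was the lowest L4 group. Groups that were neighbours in the order of their means overlapped in ppm, apart from the step between the stages. Among the 214 guides, *miR-786-3p* ranked between 36 and 56 in L4 libraries and between 92 and 120 in embryo libraries. *miR-240-3p* ranked between 55 and 77 at L4 and between 105 and 135 in embryos.

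**Figure D1:**
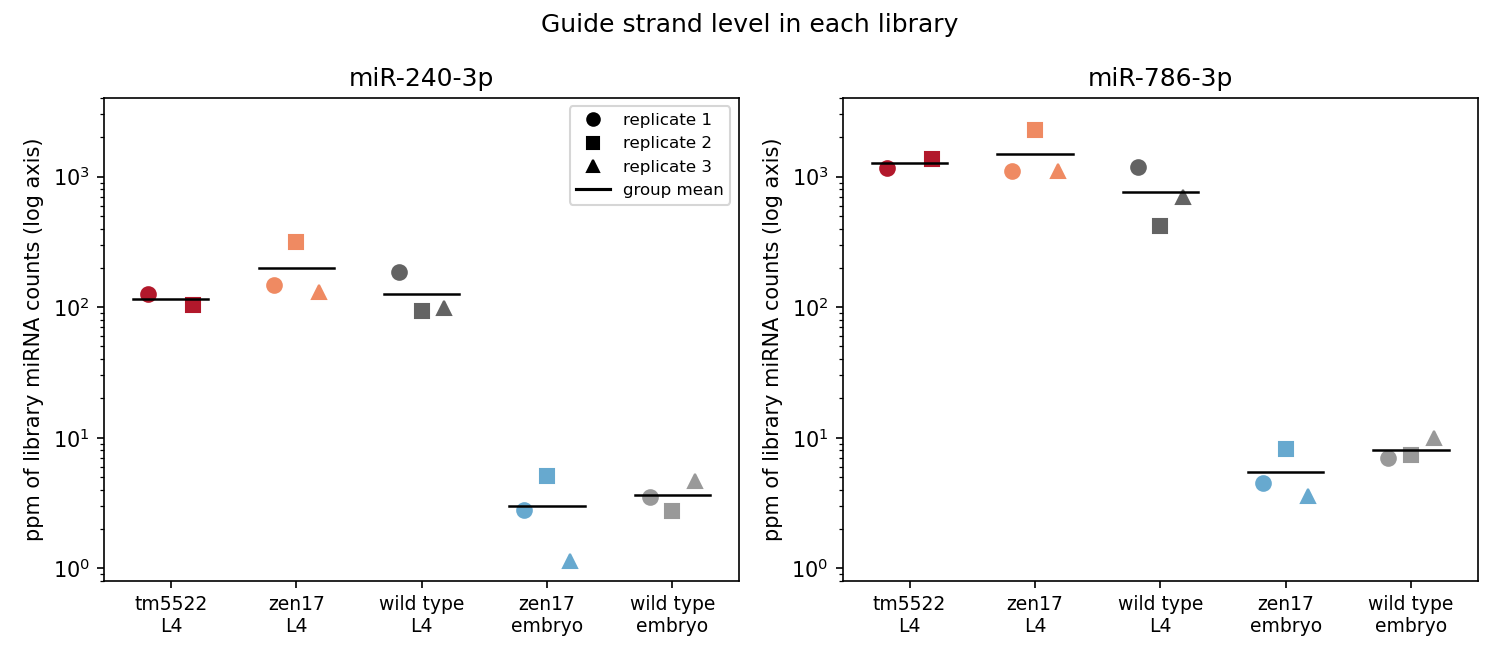
Level of each guide strand in ppm of a library's miRNA counts, on a log axis, with 1 point per library (symbols mark the replicate number) and a line at each group's mean. The L4 libraries lie between 93.1 and 317 ppm for *miR-240-3p* and between 420.0 and 2263 ppm for *miR-786-3p*, above all 6 embryo libraries.

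Of the comparisons made, those between stages gave both members their largest changes. In wild type, *miR-786-3p* was 84.5-fold higher in L4 larvae than in embryos (log2 fold change 6.40, SE 0.58, edgeR quasi-likelihood test with Benjamini-Hochberg adjustment, adjusted p = 2.73e-06). *miR-240-3p* was 29.5-fold higher in the same comparison (log2 4.88, SE 0.48, edgeR adjusted p = 4.44e-06). These were the changes ranked 23 and 30 of the 230 strands tested when ordered downward from the highest. Passing the test is common between stages, since 166 of the 230 strands (72.2%) did so and 64.3% had groups that did not overlap in ppm, as both members did. In *zen17*, *miR-786-3p* was 255-fold higher in L4 larvae than in embryos (log2 7.99, SE 0.37, edgeR adjusted p = 2.63e-09) and ranked 8 of 238 strands. *miR-240-3p* was 60.0-fold higher in *zen17* L4 larvae than in *zen17* embryos (log2 5.91, SE 0.42, edgeR adjusted p = 6.91e-08) and ranked 20. In *zen17*, 72.7% of the strands passed the test and 76.1% had groups that did not overlap, again both members among them. In RNA of whole animals, more cells that make a miRNA and more of it per cell cannot be told apart. All 5 larval timing guides also rose with stage in both genotypes, by a median of 9.85 (wild type) and 9.12 (*zen17*) on the log2 scale, and *miR-60-3p*, an intestinal miRNA, rose by 2.25 and 1.94.

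In *zen17* embryos, *miR-786-3p* fell to 0.467 of the wild type level (log2 fold change -1.10, SE 0.33, 95% interval -1.82 to -0.37, edgeR adjusted p = 0.0406, n = 3 each). This strand was counted only 46, 87 and 25 times in the *zen17* embryo libraries and 76, 57 and 19 times in the wild type embryo libraries, and the groups overlapped in ppm. *miR-240-3p* had 29, 54 and 8 counts in *zen17* embryos and 38, 21 and 9 in wild type embryos, with a log2 fold change of -0.79 (SE 0.46, 95% interval -1.80 to 0.21, edgeR adjusted p = 0.269). Of the 201 strands tested in embryos, 17.9% passed the test, 21 higher and 15 lower, and 18.4% had groups that did not overlap in ppm, neither member among them. The call for *miR-786-3p* held with RLE size factors (-1.09, edgeR adjusted p = 0.0434) and by DESeq2 (-1.09, adjusted p = 0.0326). When libraries were scaled by their totals its log2 fold change was -0.55 (edgeR adjusted p = 0.724), and that scale moved the median of all tested strands up by 0.39. The call was also lost without wild type embryo replicate 1 or 2 (edgeR adjusted p = 0.161 and 0.111) and without *zen17* embryo replicate 1 or 3 (0.133 and 0.139), while the log2 fold change was -0.98, -1.10, -1.09 and -0.91 in these fits. The *miR-35* family had a median log2 fold change of -0.72 in the same comparison, beside -0.08 over all strands. By edgeR 1 of its 8 guides was lower and none higher. Of the 5 larval timing guides, 2 passed as higher and none as lower, with a median of 0.07. The 2 were *lin-4-5p* (log2 2.28, edgeR adjusted p = 0.0011) and *miR-84-5p* (1.77, edgeR adjusted p = 0.00393), both without overlap in ppm. The part of these markers in the result for *miR-786-3p* was not tested.

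In L4 larvae, neither guide strand passed the test in any comparison of genotypes. In *zen17* L4 larvae against wild type, the log2 fold change was 0.62 for *miR-240-3p* (SE 0.38, 95% interval -0.24 to 1.47, edgeR adjusted p = 0.452) and 0.88 for *miR-786-3p* (SE 0.44, 95% interval -0.12 to 1.87, edgeR adjusted p = 0.340). These intervals hold both no change and rises of more than 2-fold. By edgeR 0 of the 228 strands (0%) passed in this comparison, where 33 had an unadjusted p under 0.05 and DESeq2 called 9, and 14.9% of the strands had groups that did not overlap in ppm. The members were not among the strands without overlap. Both estimates leaned on the replicates numbered 2. Without wild type L4 replicate 2 they were 0.24 for *miR-240-3p* and 0.41 for *miR-786-3p*, and without *zen17* L4 replicate 2 they were 0.22 and 0.55. The larval timing sum was 163800, 192300 and 158900 ppm in *zen17* and 151900, 90390 and 157200 ppm in wild type L4 larvae, so that it too was lowest in wild type replicate 2 and, within *zen17*, highest in replicate 2. Whether staging had a part in these values was not tested.

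The *zen17* change of *miR-786-3p* was negative in embryos and positive in L4 larvae. The difference of the changes, L4 minus embryo, was 1.79 on the log2 scale for *miR-786-3p* (SE 0.60, 95% interval 0.52 to 3.06) and 1.22 for *miR-240-3p* (SE 0.63, 95% interval -0.12 to 2.56). Neither passed the test over the 250 strands (edgeR adjusted p = 0.101 and 0.329), in which 4.8% of strands did. DESeq2 gave 2.06 for *miR-786-3p* with an adjusted p of 0.0286.

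In *tm5522* L4 larvae against wild type, *miR-240-3p* had a log2 fold change of -0.19 (SE 0.41, 95% interval -1.19 to 0.81, edgeR adjusted p = 0.724) and *miR-786-3p* one of 0.63 (SE 0.52, 95% interval -0.64 to 1.90, edgeR adjusted p = 0.402). Here 22.4% of 232 strands passed the test and 48.7% had groups that did not overlap, neither guide among them. Against *zen17* L4 larvae, *miR-240-3p* was lower in both *tm5522* libraries than in all 3 *zen17* libraries, as 59.8% of the 229 strands were in 1 direction or the other. Its log2 fold change of -0.83 (SE 0.30, 95% interval -1.50 to -0.16) missed the threshold with an edgeR adjusted p of 0.0503, where 38.4% of strands passed. *miR-786-3p* had a log2 fold change of -0.28 (SE 0.26, edgeR adjusted p = 0.406), which was 0.04 without *zen17* L4 replicate 2.

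**Figure D2:**
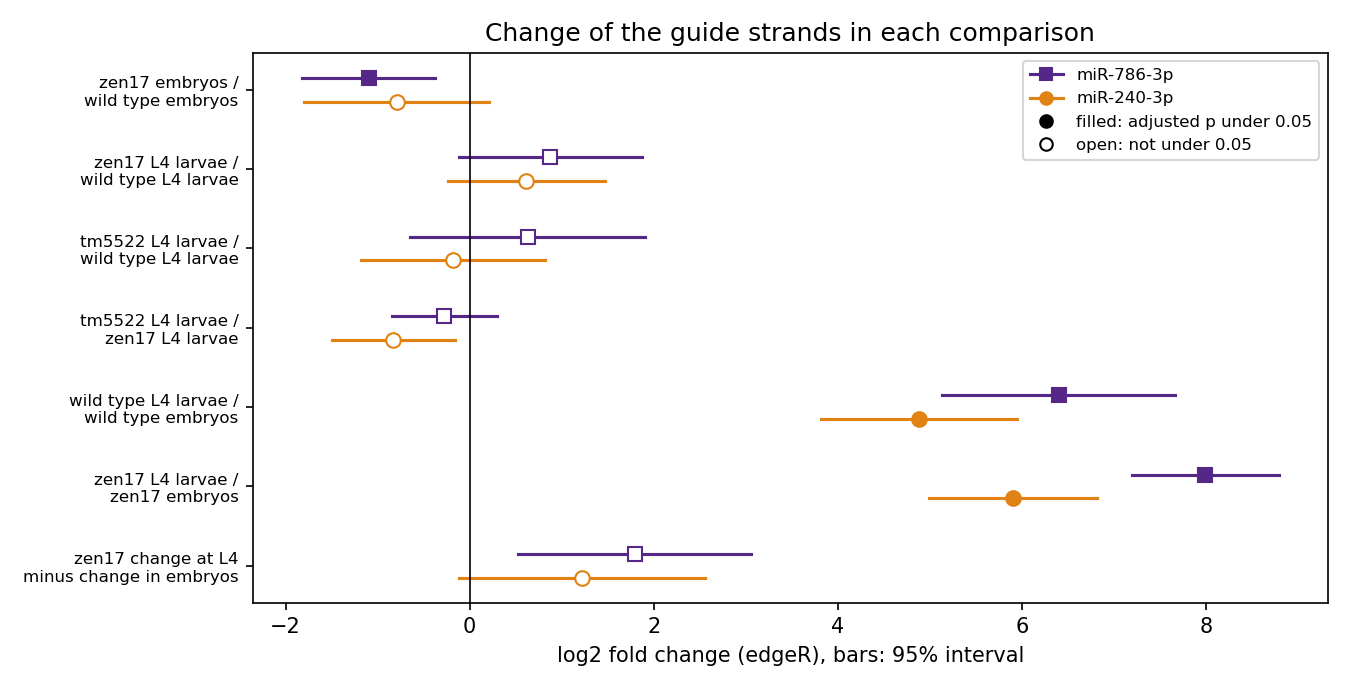
Log2 fold change of each guide strand from edgeR with its 95% interval in the 6 comparisons and in the difference of the *zen17* change between stages; filled symbols have an adjusted p under 0.05. The changes with stage lie between 4.88 and 7.99, and among comparisons of genotypes only *miR-786-3p* in embryos, at -1.10, has a filled symbol.

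The members share a locus, yet the ratio between them was not constant. This ratio is taken within a library and does not depend on scaling between libraries. There were 9.37 and 13.1 counts of *miR-786-3p* for each count of *miR-240-3p* in *tm5522* L4 larvae, 7.47, 7.14 and 8.40 in *zen17* L4 larvae and 6.35, 4.51 and 7.14 in wild type L4 larvae. In embryos the ratio was 1.59, 1.61 and 3.12 in *zen17* and 2.0, 2.71 and 2.11 in wild type. These embryo ratios rest on only 8 to 54 counts of *miR-240-3p* in a *zen17* library and 9 to 38 in a wild type library. All L4 libraries had a higher ratio than all embryo libraries, and both *tm5522* libraries had a higher ratio than every other library.

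Between stages the ratio was 2.66-fold higher in L4 larvae than in embryos in wild type and 3.89-fold higher in *zen17*, with an exact two-sided permutation p of 0.1 in each (0.2 adjusted over 6 comparisons), which is the smallest that 3 libraries against 3 can give. On the log2 scale these differences were 1.41 (SE 0.24) in wild type and 1.96 (SE 0.31) in *zen17*, and 1.57 and 2.12 with a pseudocount of 5. In *zen17* L4 larvae the ratio was 1.30-fold that of wild type L4 larvae (exact permutation p = 0.1, adjusted 0.2), with the lowest *zen17* library and the highest wild type library both at 7.14. In *tm5522* L4 larvae it was 1.88-fold that of wild type and 1.45-fold that of *zen17*, each with an exact permutation p of 0.2 (adjusted 0.24), the smallest that 2 libraries against 3 can give. In embryos the ratio in *zen17* was 0.886 of that in wild type (exact permutation p = 0.6). The permutation test could therefore not reach 0.05 in any comparison of the ratio, and no other test of it was run.

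**Figure D3:**
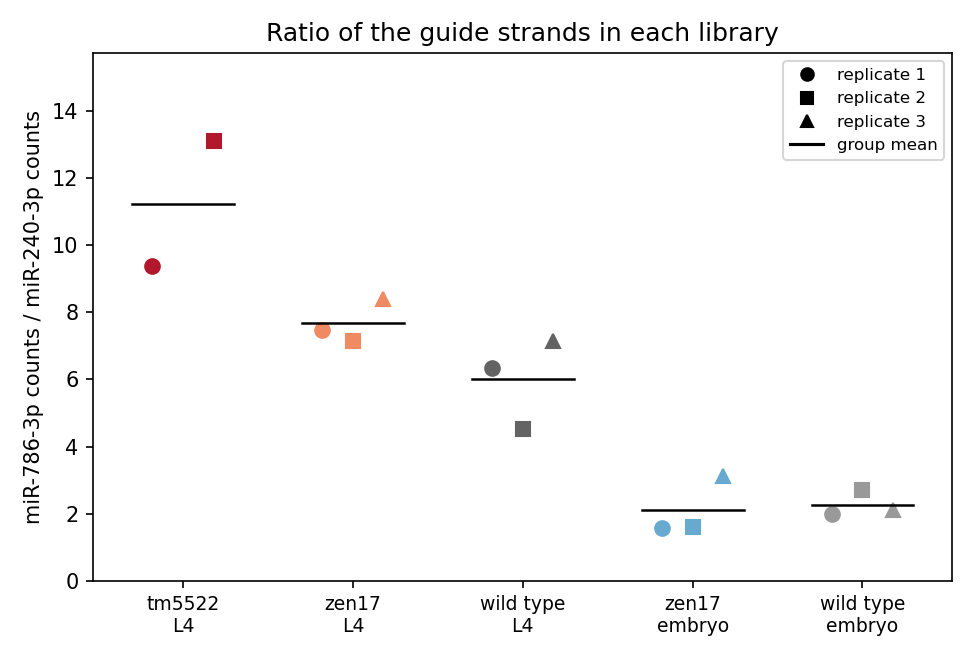
Counts of *miR-786-3p* divided by counts of *miR-240-3p* in each library, with a line at each group's mean; symbols mark the replicate number. The group means are 11.2 in *tm5522*, 7.67 in *zen17* and 6.0 in wild type L4 larvae, and 2.11 in *zen17* and 2.27 in wild type embryos.

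The star strands set the hairpins apart. *miR-786-5p* was almost absent, with 0 and 1 counts in *tm5522* L4 libraries, 1, 10 and 2 in *zen17* L4 libraries, 2, 0 and 1 in wild type L4 libraries and 0 in all 6 embryo libraries. It was too rare to be tested. *miR-240-5p* was counted 853 and 780 times in *tm5522* L4 libraries, 431, 722 and 529 times in *zen17* L4 libraries and 381, 121 and 357 times in wild type L4 libraries. In embryos it was counted 9, 0 and 1 times in *zen17* libraries and 5, 5 and 2 times in wild type libraries.

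In ppm, *miR-240-5p* stood at 76.2 and 56.7 in *tm5522* L4 larvae, at 28.5, 47.8 and 28.5 in *zen17* L4 larvae and at 24.4, 8.11 and 18.1 in wild type L4 larvae, and the 3 L4 groups did not overlap, as 59.8% of strands did not between *tm5522* and *zen17*, 48.7% between *tm5522* and wild type and 14.9% between *zen17* and wild type. It rose 1.82-fold in *tm5522* against *zen17* L4 larvae (log2 0.86, SE 0.23, edgeR adjusted p = 0.0151), a comparison in which 38.4% of strands passed. This call was lost without *zen17* L4 replicate 1 or 3 or *tm5522* L4 replicate 1 (edgeR adjusted p = 0.111, 0.0718 and 0.105) and in a fit of all 14 libraries (0.24), with log2 fold changes of 0.78, 0.74, 0.72 and 0.97 in these fits. Against wild type, *tm5522* gave a log2 fold change of 1.84 (SE 0.58, 95% interval 0.43 to 3.25, edgeR adjusted p = 0.0631) and *zen17* gave 0.95 (SE 0.47, 95% interval -0.106 to 2.005, edgeR adjusted p = 0.339). The *tm5522* value against wild type passed by DESeq2 (1.81, adjusted p = 0.00978) and with total counts as the scale (1.98, edgeR adjusted p = 0.00584). It also passed by edgeR without a filter (1.84, adjusted p = 0.0486), in a fit of all 14 libraries (1.84, 0.0167) and without wild type L4 replicate 2 (1.37, 0.00221). By edgeR it did not pass with RLE size factors (1.81, adjusted p = 0.0588) or with 50 counts (1.78, 0.0559). Nor did it pass without wild type L4 replicate 1 (1.98, edgeR adjusted p = 0.108) or 3 (2.17, 0.0731). The log2 fold change was 1.71 without *tm5522* L4 replicate 1 and 2.04 without *tm5522* L4 replicate 2, fits that leave 1 *tm5522* library. Between stages *miR-240-5p* rose with its guide, by 4.51 on the log2 scale in wild type (edgeR adjusted p = 8.65e-05) and by 6.45 in *zen17* (edgeR adjusted p = 3.27e-06). It had only 2 to 5 counts in wild type embryo libraries and 0 to 9 in *zen17* embryo libraries. The strand therefore met the count filter through its L4 libraries alone, which favours a rise in these tests. Its L4 libraries held at least 121 counts in wild type and 431 in *zen17*, but the sizes of the rises rest on few embryo counts.

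As a share of the *miR-240* hairpin's counts, the star strand made up 37.8% and 35.3% in *tm5522* L4 larvae (95% Clopper-Pearson intervals 35.8 to 39.9 and 33.3 to 37.3). It made up 16.2%, 13.1% and 17.8% in *zen17* L4 larvae and 11.6%, 8.01% and 15.6% in wild type L4 larvae, with intervals within 12.2 to 19.2 and within 6.69 to 17.1. Both *tm5522* libraries were above all other L4 libraries, while *zen17* and wild type overlapped. In embryos the shares were 23.7%, 0% and 11.1% in *zen17* and 11.6%, 19.2% and 18.2% in wild type. These rest on 9 to 54 hairpin counts a library and their intervals, which cover counting error only, reach up to 51.8%. The shares of the embryo groups overlapped and were not tested.

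The guide to star ratio of *miR-240* was 1.64 and 1.84 in *tm5522* L4 larvae, 5.18, 6.63 and 4.63 in *zen17* L4 larvae and 7.62, 11.5 and 5.41 in wild type L4 larvae. It fell to 0.223 of the wild type ratio in *tm5522* (log2 -2.16, SE 0.51, 95% interval -3.30 to -1.03, limma adjusted p = 0.00973) and to 0.321 of the *zen17* ratio (log2 -1.64, SE 0.31, 95% interval -2.38 to -0.90, limma adjusted p = 0.00865). Such changes were frequent in *tm5522*: 36.1% of the 83 hairpins tested against wild type passed, 18 with a higher and 12 with a lower guide to star ratio, and 35.1% of the 77 tested against *zen17*, 11 higher and 16 lower. *miR-240* had the change ranked 7 from the lowest of the 83 and 11 from the lowest of the 77. With 1 *tm5522* library left out, the ratio remained lower but the adjusted p was 0.0902 (without replicate 1) and 0.0843 (without replicate 2) against wild type, and 0.0778 and 0.0549 against *zen17*. In *zen17* L4 larvae against wild type the log2 change was -0.52 (SE 0.42, 95% interval -1.43 to 0.38, limma adjusted p = 0.573), where 0 of 79 hairpins (0%) passed by limma and 8 had an unadjusted p under 0.05.

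Against *zen17*, the log2 fold changes were -0.83 for *miR-240-3p* and 0.86 for *miR-240-5p*, of which only the star passed edgeR's test. How the lower ratio divided between guide and star depended on single libraries. The values were -0.44 and 1.06 without *zen17* L4 replicate 2, and -1.06 and 0.74 without *zen17* L4 replicate 3. Against wild type the estimates were -0.19 for the guide and 1.84 for the star, and neither passed edgeR's test. Set against the other member instead of its own guide, *miR-240-5p* was also more frequent in *tm5522*: there were 15.4 and 24.0 counts of *miR-786-3p* for each of its counts in *tm5522* L4 larvae, 38.7, 47.4 and 38.9 in *zen17* L4 larvae and 48.4, 51.8 and 38.6 in wild type L4 larvae. Between stages the guide to star ratio of *miR-240* changed by 0.73 on the log2 scale in wild type (limma adjusted p = 0.235) and by -1.20 in *zen17* (limma adjusted p = 0.444), where 55.6% and 39.5% of hairpins passed. The second value had its sign from *zen17* embryo replicate 2, whose star count was 0, and it was 0.37 without that library. The pair entered both stage tests only because the star met the count filter in its L4 libraries. Its embryo libraries held 2 to 5 star counts in wild type and 0 to 9 in *zen17*, so no conclusion is drawn from these tests.

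**Figure D4:**
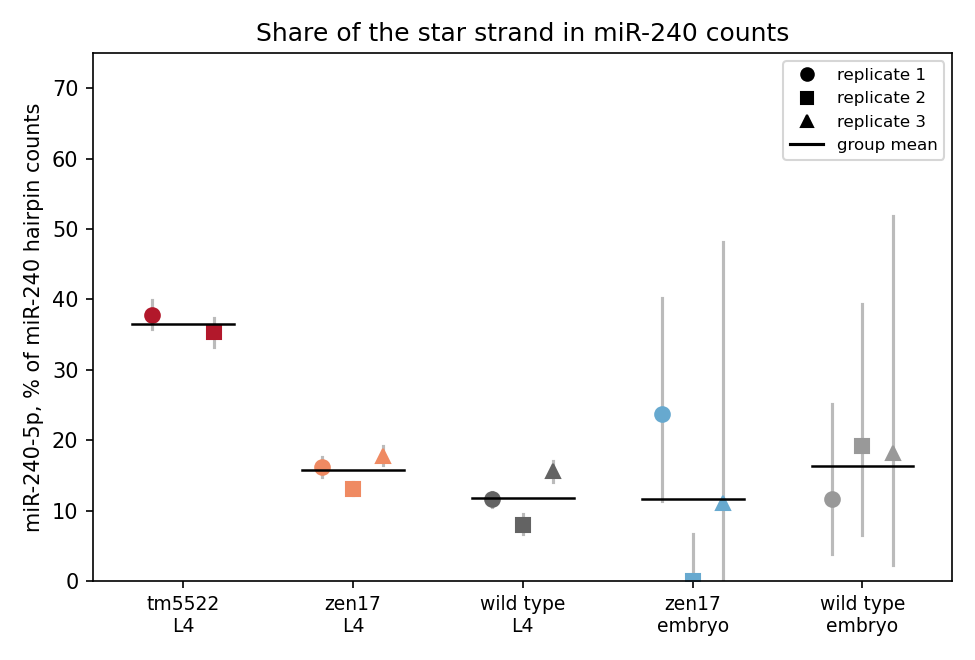
Share of *miR-240-5p* in all counts of the *miR-240* hairpin, in percent, with 1 point per library, its 95% Clopper-Pearson interval as a grey bar and a line at each group's mean; symbols mark the replicate number. The *tm5522* L4 libraries lie at 37.8% and 35.3%, above the other 6 L4 libraries, which lie between 8.01% and 17.8%.

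Markers of stage and tissue were set beside these values in *tm5522* L4 larvae. The neuronal guides *lsy-6-3p* and *miR-124-3p* both passed as lower, against wild type and against *zen17*, with a summed level of 27.8 and 27.4 ppm in *tm5522*, between 82.2 and 90.0 ppm in *zen17* and between 89.8 and 182 ppm in wild type L4 larvae. Of the larval timing guides, 1 of 5 passed as higher in *tm5522* than in wild type, near the 22.4% of all strands that passed in either direction, and 3 of 5 passed as higher than in *zen17*, where 38.4% of all strands passed. The 8 *miR-35* family guides had a median log2 fold change of -0.80 against wild type, beside -0.09 over all strands, with edgeR adjusted p between 0.0742 and 0.959 and 3 unadjusted p under 0.05, and 3 of 8 passed as lower and 1 as higher against *zen17* (median -0.59, beside -0.14). *miR-1-3p*, a muscle miRNA, stood at 126700 and 177300 ppm in *tm5522*, between 119700 and 199900 ppm in *zen17* and between 200400 and 353500 ppm in wild type L4 larvae. It was without overlap between *tm5522* and wild type, as 48.7% of all strands were, and also between *zen17* and wild type, as 14.9% were. In *tm5522* it did not pass against either (log2 -0.72 against wild type, edgeR adjusted p = 0.148). *miR-60-3p* is the intestinal marker and so the nearest to the tissue in which *mir-786* acts. It stood at 5073 and 7273 ppm in *tm5522*, between 3472 and 4619 ppm in *zen17* and between 3279 and 7554 ppm in wild type L4 larvae. It was without overlap between *tm5522* and *zen17* (log2 0.49), as 59.8% of all strands were, and did not pass the test in any comparison of genotypes. The part of these markers in the results for *miR-240* was not tested.

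Over all 14 libraries the guide whose level was most like each member's, of 154 guides compared, was the other member (Pearson r of log2 CPM 0.992). The next 3 for both were *let-7-5p*, *miR-48-5p* and *miR-241-5p*, all of the *let-7* family, with r between 0.976 and 0.992. These values mostly carry the step between stages that all the points share. Over the 8 L4 libraries alone the r between the members was 0.821, and *miR-786-3p* ranked only 7 among the guides most like *miR-240-3p*, while *miR-240-3p* ranked 15 for *miR-786-3p*. There, *miR-5592-3p* (r = 0.948), *miR-1829b-5p* (0.908) and *miR-64-5p* (0.896) were most like *miR-240-3p*. *miR-59-3p* (r = 0.949), *miR-65-5p* (0.939) and *miR-5592-3p* (0.929) were most like *miR-786-3p*. Over the 6 embryo libraries the r between the members was 0.914. All of these are descriptions over libraries that share their groups, and *miR-1829b-5p* stood below 3 ppm in every L4 library.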

How the data were processed

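Small RNA was gel selected, made into libraries with a NEXTflex v3 kit and sequenced by the authors, who deposited raw read counts for each miRNA strand and marked each as guide or star. The submitters' processing notes name cutadapt 1.15 and Bowtie; the genome build and the treatment of reads that match several miRNAs are not given in the sources used here. All 14 columns were matched to samples by their titles. Groups came from the labels. ppm is a strand's count over its library's total. Strands with at least 10 counts in as many libraries as the smaller group (3 for the stage difference) were tested across the whole table. The test was edgeR 4.0.16 (quasi-likelihood, TMM, libraries of the compared groups), with p-values adjusted by Benjamini-Hochberg and called under 0.05. Log2 CPM for the correlations used TMM and a prior count of 2. Guide to star log2 ratios (pseudocount 0.5, added to both counts) were tested with limma 3.58.1. Ratios of the members were compared by exact permutation over libraries. The edgeR test was tried on simulated counts with 40 strands changed, and the limma ratio test on a separate simulated set. The permutation test was checked on small sets of known values only. Alternatives were RLE size factors, total counts as the scale, no filter and 50 counts, DESeq2 1.42.0, a fit of all libraries, a replicate block, each library left out, and a pseudocount of 5. Named strands are the members, their star strands, the markers and the 3 guides most like each member, among guides with at least 10 counts in 3 libraries. The members, lists and tests were chosen with earlier results of these data known. Gene positions are from Ensembl release 115. R 4.3.3, SciPy 1.17.1 and matplotlib 3.10.9 were used.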

Additional observations from a re-analysis of the deposited data

Results flagged for a closer look

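The guide to star ratio of *miR-240* differed between the *hrpk-1* alleles in L4 larvae. Its change against wild type was lower in *tm5522* than in *zen17* by a difference of -1.64 on the log2 scale (limma adjusted p = 0.00865 over 77 hairpins), which is the *tm5522* against *zen17* comparison itself, since the same wild type libraries enter both changes. Both *tm5522* libraries lay below all 3 *zen17* libraries. Such differences were frequent, since 35.1% of the 77 hairpins passed in this comparison, and *miR-240* ranked 11 from the lowest. The difference was -1.56 without *tm5522* L4 replicate 1 and -1.72 without *tm5522* L4 replicate 2, fits that leave 1 *tm5522* library. No group held more than 3 libraries, so single libraries were not screened for values apart from their group.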

How the results depend on the processing

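The rise of both guides with stage passed under every alternative run. In embryos, *miR-786-3p* was not past the threshold with total counts as the scale (-0.55), without a filter (-1.05, adjusted p = 0.0534), in a fit of all 14 libraries (-0.93, 0.154) or with the replicate block (-1.08, 0.0533), and it lay between -1.32 and -0.91 with libraries left out. *miR-240-3p* in *tm5522* against wild type was 0.018 with the replicate block and between -0.53 and 0.082 with libraries left out (0.082 without wild type L4 replicate 1). Against *zen17* it passed with 50 counts (-0.78, 0.0427), by DESeq2 (-0.75, 0.0247) and without *zen17* L4 replicate 3 (0.00968), with a range of -1.06 to -0.44 with libraries left out, and *miR-786-3p* ranged between -0.45 and 0.039 (0.039 without *zen17* L4 replicate 2). The stage difference of *miR-786-3p* passed by DESeq2 (2.06). With libraries left out, the change of the *miR-240* guide to star ratio in *tm5522* ranged between -2.43 and -1.89 against wild type. Against *zen17* it ranged between -1.75 and -1.49. With a pseudocount of 5 the stage change of this ratio was 1.44 in wild type, which passed (limma adjusted p = 0.0149), and 0.44 in *zen17*, which did not. The star counts in wild type embryos were 2 to 5, no larger than this pseudocount. The *zen17* stage change ranged between -2.20 and 0.37 with libraries left out. The log2 ratio of the members in *tm5522* against *zen17* ranged between 0.29 and 0.77.

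Counts of strands past the threshold moved by over 1.5 times. In embryos there were 36, with 17 by total counts and 17 to 43 with libraries left out. In *zen17* L4 larvae there were 0, with 3 by total counts, 9 by DESeq2 and 0 to 13 with libraries left out (13 without wild type L4 replicate 2). In *tm5522* against wild type there were 52, with 81 in a fit of all libraries, 80 by DESeq2 and 0 to 110 with libraries left out (0 without either *tm5522* library, 110 without wild type L4 replicate 2). Against *zen17* there were 88, with 39 in a fit of all libraries and 53 with the replicate block. The stage difference had 12, with 19 by DESeq2. Same-numbered libraries did not deviate together (r between -0.363 and 0.144), and in none of the 6 comparisons did every library correlate best with its own number, so the numbers were not taken to pair libraries. With the replicate block, *miR-240-5p* in *tm5522* against *zen17* was 0.78 (adjusted p = 0.155) and in *tm5522* against wild type 2.44 (adjusted p = 0.0016). Against TMM, the other scalings moved the median log2 fold change of all tested strands by between -0.35 and 0.39, depending on the comparison. The cause of these changes was not tested. Depth limits the embryo values most, where a member had as few as 8 counts. With the filter of 50 counts, *miR-240-3p* was not tested in embryos.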
